A study of Homo sapiens with 6 samples.

Results

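The genes described here belong to a signalling axis that runs from cytokine receptors at the cell surface through tyrosine kinases to the transcription factor STAT5 and its target genes. They were taken from the deposited count table by symbol, and all 10 listed genes were found among the 20030 genes of the table, namely the receptors EPOR and KIT, the kinase JAK2, both STAT5 genes (STAT5A and STAT5B), the STAT5 targets PIM1, SOCS2 and CISH, and the genes BCR and ABL1. RNA-seq was carried out on 6 libraries of cells labelled H929, a human multiple myeloma cell line. In 3 libraries (IGF2BP1-KD, knockdown) the m6A reader IGF2BP1 had been knocked down, which the study did with lentiviral short hairpin RNAs and drug selection of stable lines, and 3 libraries (IGF2BP1-NC, controls) carried the negative control. The methods list a pair of IGF2BP1 target sequences without saying which one these libraries carry, and nothing says that the libraries of a group came from separate cultures, so the p-values measure the spread between libraries, which may be technical.

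Erythropoietin and stem cell factor are the ligands of EPOR and KIT, and both receptors act on erythroid progenitors. EPOR has no kinase activity of its own and signals through JAK2, which is bound to it and phosphorylates STAT5. Active STAT5 enters the nucleus and induces, among others, CISH and SOCS2, whose products dampen the same receptors, and PIM1, a kinase that favours survival. ABL1 is a tyrosine kinase, and its joining to BCR on the Philadelphia chromosome gives a fusion kinase that also activates STAT5.

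The libraries held 16885449 to 18112179 counts each, and the floor of 3 counts that a gene listed at 0 may still have equals 0.166 to 0.178 CPM (counts scaled to library size), for counting error only. IGF2BP1 itself was at 43.7 to 49.1 FPKM (fragments per kilobase of transcript, scaled to library size) in controls and at 12.8 to 13.5 FPKM in knockdown libraries, a log2 fold change of -1.85 (adjusted p = 4.8e-08, edgeR). The cell type of the label was read from marker lists. Of 15 plasma cell markers, 7 had at most 3 counts in every library, namely TNFRSF17, IRF4, CD38, CD27, POU2AF1, TNFRSF13B and FCRL5. Another 4 exceeded 1 CPM throughout, namely SDC1, PRDM1, DERL3 and XBP1. The summed level of the list was 83.9 to 167 CPM in IGF2BP1-NC and 87.5 to 92.3 CPM in IGF2BP1-KD. Most of it came from XBP1, with 1181 to 2689 counts. SLAMF7 rose from 4, 5 and 4 counts in IGF2BP1-NC to 52, 42 and 181 counts in IGF2BP1-KD (adjusted p = 0.00878, edgeR). It passed the filter on low counts only through IGF2BP1-KD. All 13 erythroid markers exceeded 1 CPM throughout, and their summed level was 7549 to 8321 CPM in IGF2BP1-NC and 7385 to 8417 CPM in IGF2BP1-KD. Of the other lists, 5 B cell markers summed to 4.53 to 5.20 CPM in IGF2BP1-NC and 6.40 to 10.2 CPM in IGF2BP1-KD (MS4A1 and BLK at most 3 counts), 5 T cell markers to 4.14 to 9.53 and 6.87 to 7.64 CPM (CD2 and CD5 at most 3 counts), and 7 megakaryocyte markers to 67.1 to 111.7 and 66.9 to 73.9 CPM (GP9, PF4 and GP1BA at most 3 counts). The labelled cell type is therefore named below only as the label gives it.

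Of the 10 genes, 7 fell in IGF2BP1-KD cells and 0 rose at an adjusted p under 0.05 in edgeR. The 7 were STAT5A, STAT5B, PIM1, SOCS2, CISH, BCR and ABL1. The 3 STAT5 targets fell most, by 1.75-fold to 2.02-fold, and STAT5A, STAT5B, BCR and ABL1 fell by 1.22-fold to 1.36-fold. EPOR, KIT and JAK2 did not pass the test. Of all 11994 genes tested, 14.5% were called lower and 13.7% higher (28.2% in either direction). The share called lower was larger among the 10 than in the table. The 10 genes were chosen with earlier results of these data known, so this comparison is no test of them as a set. At an unadjusted p under 0.05, 7 genes were lower and 0 higher, and DESeq2, limma-voom and limma on log2(FPKM + 1), the last without KIT, also called 7 lower and 0 higher. All 10 genes passed the filter on low counts. An adjusted p under 0.05 together with a fold of at least 2 was reached by 1 of them, PIM1, beside 1.67% of all tested genes that were lower and 3.06% that were higher on the same terms. KIT had a larger fitted fold (2.44-fold higher) without passing the test. The median log2 fold change was -0.36 over the 10 genes and -0.0048 over all tested genes.

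For the same 7 genes, every IGF2BP1-KD library lay under every IGF2BP1-NC library, while the groups of EPOR, KIT and JAK2 overlapped. Among all tested genes, 23.2% had groups that did not overlap in this direction and 45.6% in either direction. The plot of the changes shows the 10 genes with their intervals.

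**Figure D1:**
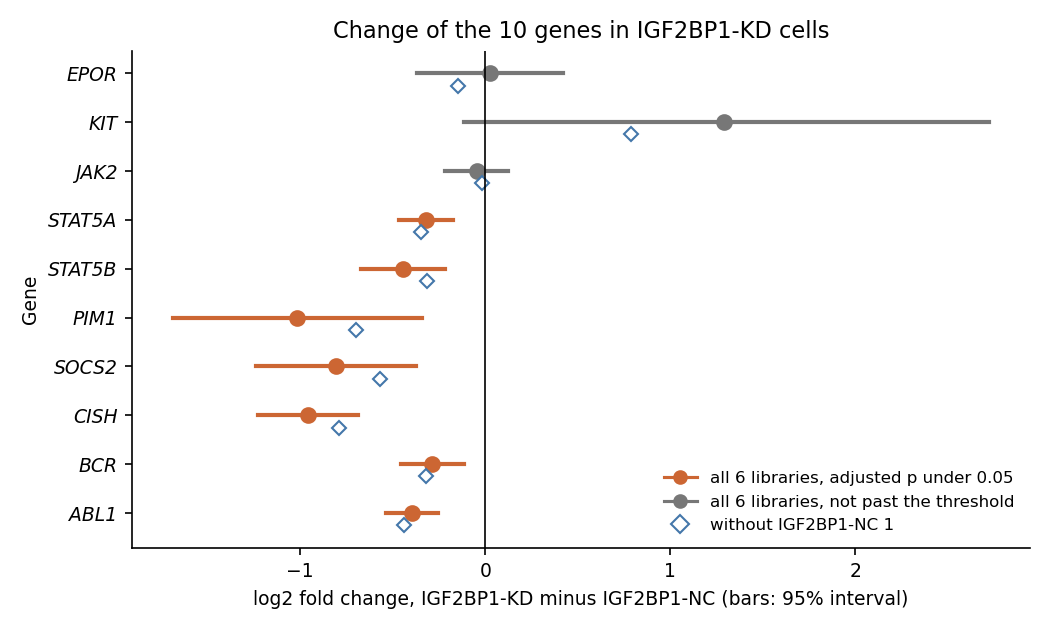
Log2 fold change of each gene (horizontal axis, IGF2BP1-KD minus IGF2BP1-NC) with its 95% interval from edgeR (bars), and the value without IGF2BP1-NC library 1 as a diamond. The intervals of 7 genes lie under 0, and the diamonds of PIM1, SOCS2 and CISH lie nearer to 0 than their circles, at -0.70, -0.57 and -0.79.

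EPOR (NCBI gene 2057; chromosome 19 of GRCh38 from 11377207 to 11384342, minus strand) was expressed in every library. Its FPKM was 12.7, 17.3 and 20.3 in controls 1, 2 and 3 and 18.8, 17.0 and 15.9 in knockdowns 1, 2 and 3, which is 16.8 ± 3.84 against 17.2 ± 1.48 (SD, n = 3 each). The IGF2BP1-KD values lay inside the range of the controls, of which library 1 was lowest. The log2 fold change was 0.025, with a 95% interval from -0.37 to 0.42 and an adjusted p of 0.928 in edgeR. The sign turned to -0.15 without IGF2BP1-NC library 1 and to -0.043 without IGF2BP1-KD library 1.

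KIT (NCBI gene 3815; chromosome 4 from 54657267 to 54740783, plus strand), the receptor of stem cell factor, was near the floor. It had 1, 5 and 14 counts in controls and 10, 15 and 24 counts in knockdown libraries. The groups overlapped, and the single count of IGF2BP1-NC library 1 has a 95% Poisson interval from 0.0253 to 5.57 counts. The log2 fold change of 1.29 had an interval from -0.11 to 2.72 (adjusted p = 0.153, edgeR). It passed the threshold only without IGF2BP1-NC library 3, with a log2 fold change of 2.39 and an adjusted p of 0.0315 in edgeR, beside a range of 0.0315 to 0.400 over all alternatives. KIT also marks mast cells. Of the 10 listed mast cell, basophil and eosinophil markers, CPA3 and TPSAB1 had at most 3 counts in every library. CLC and PRG3 were not tested either. The 6 that could be tested were all called higher in IGF2BP1-KD, beside 13.7% of all tested genes. HDC, MS4A2 and EPX passed the filter on low counts only through IGF2BP1-KD, so for them a rise was built into the filter. The summed level of that list was 196 to 217 CPM in IGF2BP1-NC and 457 to 794 CPM in IGF2BP1-KD, highest in IGF2BP1-KD library 3. Most of the sum in IGF2BP1-NC came from GATA2, with 3074, 3140 and 3089 counts there and 4481, 4124 and 4603 in IGF2BP1-KD. MS4A3 went from 482, 426 and 312 to 2012, 2014 and 4461 counts, and PRG2 from 105, 175 and 126 to 1473, 1645 and 4026. The part of this list in the result for KIT was not tested. In bulk RNA more cells of a type and more RNA per cell cannot be told apart.

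JAK2 (NCBI gene 3717; chromosome 9 from 4984390 to 5129948, plus strand) had the tightest values of the 3 genes that did not pass the test. Its FPKM was 8.17, 7.63 and 7.39 in IGF2BP1-NC and 8.03, 7.58 and 7.01 in knockdown libraries. The log2 fold change was -0.046, with an interval from -0.22 to 0.13 (adjusted p = 0.692, edgeR). Without IGF2BP1-KD library 3 its sign turned, to 0.0064. The receptor EPOR and its kinase therefore showed no detectable difference at a spread that leaves room for changes within these intervals.

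STAT5A and STAT5B are neighbouring genes on chromosome 17 whose products bind the same DNA motif. STAT5A (NCBI gene 6776; from 42287547 to 42311943, plus strand) was at 130.0, 133 and 135 FPKM in controls and at 113, 109.6 and 98.5 FPKM in knockdown libraries. The controls lay within a narrow band and all IGF2BP1-KD libraries under it. STAT5A fell by 0.32 on the log2 scale with a standard error of 0.067 (adjusted p = 0.00555, edgeR), from 133 ± 2.62 to 107 ± 7.67 FPKM (SD, n = 3 each).

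STAT5B (NCBI gene 6777; from 42199176 to 42288633, minus strand) was at 58.3, 43.9 and 45.1 FPKM in IGF2BP1-NC and at 38.2, 37.3 and 33.5 FPKM in knockdown libraries. IGF2BP1-NC library 1 stood above the other controls, and the groups did not overlap. The log2 fold change was -0.44 with a standard error of 0.10 (adjusted p = 0.0103, edgeR), and -0.31 without IGF2BP1-NC library 1. Of 3671 stretches of 100 bases in the STAT5A mRNA, 5 are shared with STAT5B, where the genes overlap head to head, and whether reads were assigned by strand is not stated. For both genes the adjusted p stayed under 0.05 in all 14 alternatives tried. The ratio of STAT5A to STAT5B was 2.23, 3.02 and 3.00 in the controls and 2.96, 2.94 and 2.94 in knockdown libraries, a log2 difference of 0.11 (exact permutation test, two-sided, p = 1) that turned to -0.031 without IGF2BP1-NC library 1.

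Among the 7 genes that passed the test, the STAT5 targets had the largest fold changes. CISH (NCBI gene 1154; chromosome 3 from 50606489 to 50611774, minus strand) encodes an SH2 protein that binds activated cytokine receptors. Its promoter is shown because it holds the STAT5 motif repeatedly. In the window of the RefSeq promoter table (250 bases before to 50 bases from the start of the gene, GRCh38.p14), the motif TTCNNNGAA, which reads the same on both strands, was found 4 times, and no match overlaps another. The matches form 2 pairs, printed 5′ to 3′ on the gene's own strand with the motif in capitals.
CISH, far pair (chr3:50611994-50612017, minus strand): ttTTCCTGGAAagTTCTTGGAAat
CISH, near pair (chr3:50611876-50611905, minus strand): ggTTCTAGGAAgacgctgcTTCCGGGAAgg
Counting the first base of the gene as 0, the matches begin at -241, -230, -129 and -112. Of 35116 promoter windows in the table, 7.66% hold at least 1 match and 7 windows hold 4 or more. Of the other members, 8 had at least 1 window in the table and none with a match, which says only that these letters are not in those windows. SOCS2 was not matched in the table.

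The FPKM of CISH was 11.5, 8.37 and 8.14 in controls and 5.11, 4.75 and 4.66 in knockdown libraries. Every IGF2BP1-KD library was under the lowest control, and IGF2BP1-NC library 1 was the highest. CISH fell by 0.96 on the log2 scale with a standard error of 0.12 (95% interval from -1.23 to -0.69, adjusted p = 0.000468, edgeR), a 1.94-fold difference. Its adjusted p was the lowest of the 10 genes and stayed under 0.05 in all 14 alternatives, reaching at most 0.00393 in edgeR. A control library moved the value most, since the log2 fold change was -0.79 without IGF2BP1-NC library 1. On the opposite strand, MAPKAPK3 overlaps CISH exons in the GENCODE annotation, and 8 of the 1920 stretches of 100 bases in the CISH mRNA are shared with its transcripts.

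SOCS2 (NCBI gene 8835; chromosome 12 from 93569814 to 93583487, plus strand), a relative of CISH that restrains growth hormone and cytokine receptors, was at 19.3, 12.8 and 11.7 FPKM in IGF2BP1-NC and at 8.08, 8.27 and 8.76 FPKM in knockdown libraries. The groups did not overlap, with IGF2BP1-NC library 1 again highest. The log2 fold change was -0.81 with a standard error of 0.18 (adjusted p = 0.0182, edgeR), from 14.6 ± 4.11 to 8.37 ± 0.352 FPKM (SD, n = 3 each). Without IGF2BP1-NC library 1 it was -0.57, with an adjusted p of 0.000107 in edgeR. Without IGF2BP1-KD library 1, 2 or 3 the adjusted p in edgeR rose to 0.0687, 0.0631 and 0.0741, and it was 0.0543 with no filter on low counts.

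PIM1 (NCBI gene 5292; chromosome 6 from 37170152 to 37175428, plus strand), a serine/threonine kinase, was at 217, 134 and 112 FPKM in IGF2BP1-NC and at 78.3, 77.1 and 74.8 FPKM in knockdown libraries. The IGF2BP1-KD libraries lay close together, and the controls were widely spread, with a standard deviation of 55.6 against 1.81 FPKM. PIM1 had a log2 fold change of -1.01 with a standard error of 0.26 (adjusted p = 0.0444, edgeR), a 2.02-fold difference. Without IGF2BP1-NC library 1 the difference was smaller and its adjusted p lower, with a log2 fold change of -0.70 (1.63-fold) and an adjusted p of 2.6e-05 in edgeR. The adjusted p exceeded 0.05 without IGF2BP1-NC library 2 (0.0716) and without IGF2BP1-KD library 1, 2 or 3 (0.112, 0.117 and 0.146). The call of PIM1 thus depended on the libraries and scaling, whereas its direction was the same in all 14 alternatives.

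**Figure D2:**
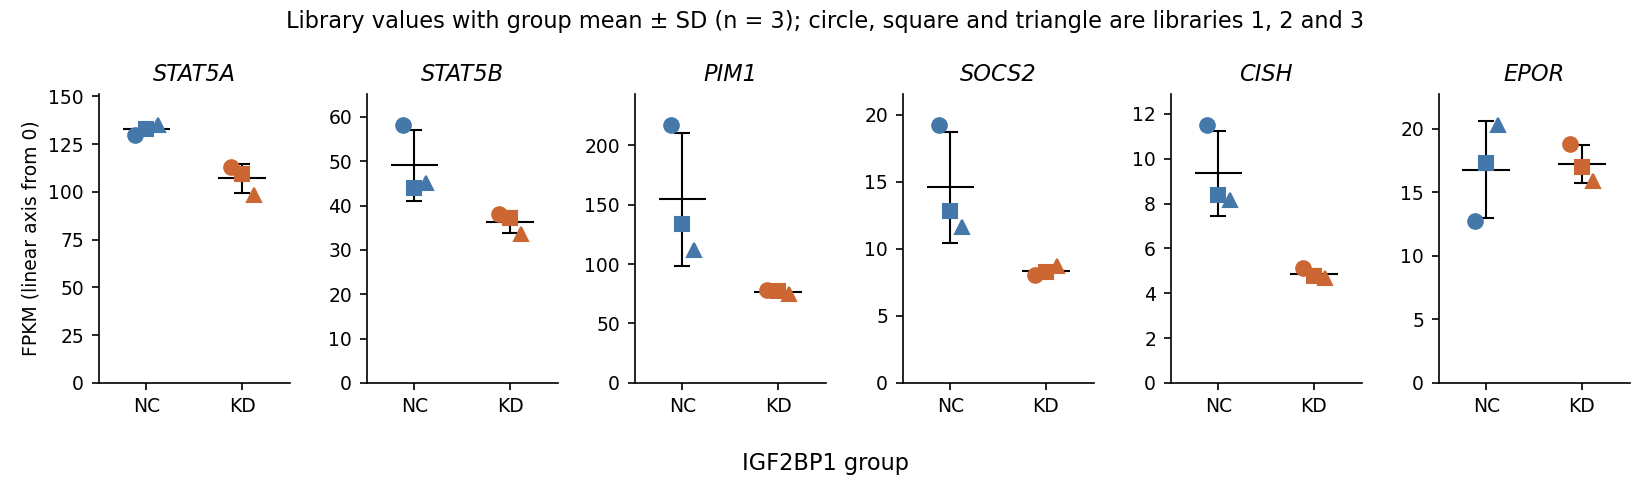
FPKM per library (vertical axis, linear from 0) of STAT5A, STAT5B, PIM1, SOCS2, CISH and EPOR in IGF2BP1-NC and IGF2BP1-KD, with group mean and SD (n = 3). IGF2BP1-NC library 1 (circle) is the highest control for STAT5B, PIM1, SOCS2 and CISH and the lowest for STAT5A and EPOR.

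IGF2BP1-NC library 1 stood apart from the other controls for several of these genes. It was 1.73-fold above the mean of libraries 2 and 3 for PIM1, 1.54-fold for SOCS2, 1.36-fold for CISH and 1.28-fold for STAT5B on the log2 CPM scale, and for EPOR its ratio to them was 0.662. Among all tested genes, 6.06% were at least 1.5-fold higher and 2.08% at least 1.5-fold lower in this library than in the other controls. With it left out, 7 of the 10 genes were still called lower, and the folds of PIM1, SOCS2 and CISH were 1.63, 1.48 and 1.73. The number of the 10 genes called lower was 4 without IGF2BP1-KD library 1 and 4 without IGF2BP1-KD library 2. Over the whole table, 1207 and 1146 genes were called lower in these fits, in place of 1738 with all libraries.

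BCR and ABL1 both fell. ABL1 (NCBI gene 25; chromosome 9 from 130713043 to 130887675, plus strand) was at 58.8, 61.7 and 64.7 FPKM in IGF2BP1-NC and at 46.2, 46.6 and 49.1 FPKM in knockdown libraries. The groups were well apart, and the log2 fold change of -0.40 with a standard error of 0.063 (adjusted p = 0.00121, edgeR) kept an adjusted p under 0.05 in all 14 alternatives. BCR (NCBI gene 613; chromosome 22 from 23179704 to 23318037, plus strand), a GTPase regulator, was at 30.3, 28.9 and 34.9 FPKM in IGF2BP1-NC and at 25.96, 24.9 and 26.9 FPKM in knockdown libraries. Its groups did not overlap but came close, and the log2 fold change was -0.29 with a standard error of 0.076 (adjusted p = 0.0173, edgeR). The adjusted p of BCR rose to 0.0607 without IGF2BP1-NC library 3, 0.0568 without IGF2BP1-KD library 1 and 0.0794 without IGF2BP1-KD library 2 in the same test.

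The ratio of BCR to ABL1 was 0.515, 0.469 and 0.539 in the controls and 0.562, 0.536 and 0.548 in knockdown libraries. These ranges overlapped, and the log2 difference of 0.11 had p = 0.2 in the exact permutation test (two-sided, where 3 against 3 cannot go below 0.1). It was 0.058 without IGF2BP1-NC library 2 and 0.16 without IGF2BP1-NC library 3. Counts per gene cannot tell reads of a joined transcript from those of either gene alone. Copies of BCR exons exist elsewhere in the genome, such as BCRP3, and 47 of 6684 stretches of 100 bases in its mRNA occur in other GENCODE genes. None has a row of the same name in the table. Some are named only by an Ensembl identifier, which a gene symbol could not match.

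Levels per length differed widely among the 10 genes. In IGF2BP1-NC the order by mean FPKM was PIM1 (154), STAT5A (133), ABL1 (61.8), STAT5B (49.1), BCR (31.4), EPOR (16.8), SOCS2 (14.6), CISH (9.35), JAK2 (7.73) and KIT (0.0719). The neighbours PIM1 and STAT5A, EPOR and SOCS2, and CISH and JAK2 had overlapping library values there. In IGF2BP1-KD, STAT5A (107) stood above PIM1 (76.7) and JAK2 (7.54) above CISH (4.84), and no pair of neighbours overlapped. Among all 20030 listed genes, the mean FPKM of PIM1 and STAT5A in the controls was at percentiles 98.2 and 97.9, that of EPOR at 80.9 and that of KIT at 36.7. The FPKM of KIT was lower than that of EPOR in every library, and the log2 ratio of KIT to EPOR differed by 1.85 between the groups (exact permutation test, two-sided, p = 0.2), a value that rests on the 1 to 14 counts of KIT in the controls. It was 1.03 without IGF2BP1-NC library 1 and 2.56 without IGF2BP1-NC library 3.

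**Figure D3:**
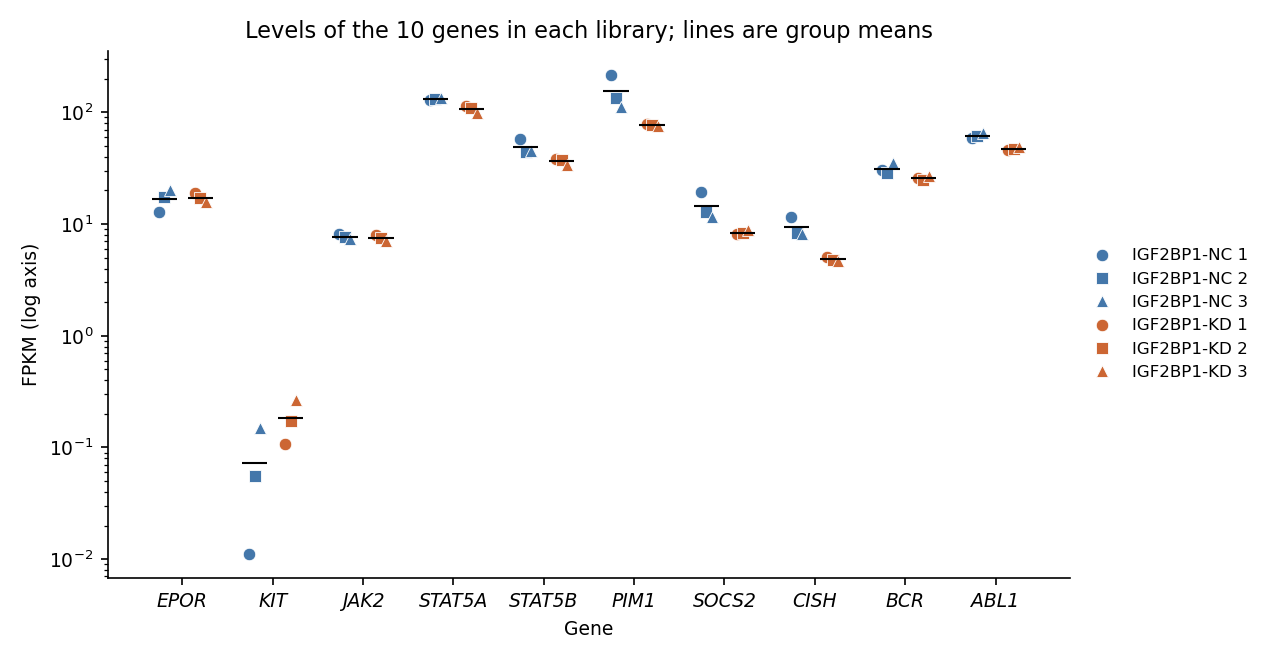
FPKM (vertical log axis) of the 10 genes in the 6 libraries, IGF2BP1-NC in blue and IGF2BP1-KD in orange, with group means as lines. KIT reaches at most 0.266 FPKM in any library, and the orange points of STAT5A, STAT5B, PIM1, SOCS2, CISH, BCR and ABL1 all lie under the blue ones.

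The genes whose profile over the 6 libraries was most like that of a member were found by the root mean square difference of centred log2 CPM among 9239 genes (mean log2 CPM of 3 or more), as a description. For EPOR they were PANK1, UTP20 and CLCN6 (0.062 to 0.069) and for KIT, less closely, ID2, ADI1 and ALAS2 (0.44 to 0.58). STAT5A was matched by CDC34, AHCY and WDR59 (0.016 to 0.021) and STAT5B by TXNRD1, TMED8 and ACSL1 (0.032 to 0.049). Those of PIM1 were TNFRSF1A, GP6 and LIMA1 (0.088 to 0.117), those of SOCS2 LIMA1, GLUL and ANTXR2 (0.051 to 0.075) and those of CISH TNKS1BP1, C4orf46 and IQSEC2 (0.038 to 0.077). BCR was nearest to EEA1, SIN3A and KIF3B (0.014 to 0.035), and ABL1 to SKI, MRPS6 and SUOX (0.021 to 0.028). LIMA1 was thus among the nearest of both PIM1 and SOCS2. Among the members themselves, BCR and ABL1 were closest (0.085), followed by STAT5A and ABL1 (0.099) and STAT5A and BCR (0.114). The 3 STAT5 targets came next, with 0.126 between SOCS2 and either PIM1 or CISH and 0.134 between PIM1 and CISH. KIT was farthest from every other member (0.899 to 1.54). The measure grows with the size of a change and with counting noise. Genes with small changes therefore lie near each other, and KIT, at 1 to 24 counts, lies far from all.

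The other genes of the pathway were read from 4 lists of 91 genes. Of these, 71 could be tested, and 13 fell, 14 rose and 44 did not pass the test. Among all tested genes, 14.5% were called lower and 13.7% higher. These shares also stand beside the counts of each list below, and no list was tested as a set. The median log2 fold change of the 71 genes was -0.061.

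Among 24 ligands and receptors, only 9 had enough counts to be tested, of which 2 fell and 3 rose. EPO itself had at most 5 counts and KITLG, which encodes stem cell factor, at most 5 counts in any library. CSF2RA, IL3RA, FLT3 and IL2RA had 0 counts in all libraries, which allows up to 3 counts each, and CSF2RA and IL3RA lie in a region common to the X and Y chromosomes whose reads can be lost in mapping.

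The receptors that rose were all low, and none would have passed the filter on low counts from the IGF2BP1-NC libraries alone. The number of rises in this list therefore depends in part on that filter. CSF3R, the receptor of G-CSF, had 2, 4 and 1 counts in IGF2BP1-NC and 23, 26 and 54 counts in knockdown libraries (log2 fold change 3.82, adjusted p = 0.000758, edgeR). CSF2RB, the common beta chain of the IL-3, IL-5 and GM-CSF receptors, had 18, 7 and 15 against 52, 53 and 152 counts (log2 fold change 2.68, adjusted p = 0.00876, edgeR), and its adjusted p was 0.0512 without IGF2BP1-NC library 3. IL6R rose from 9, 2 and 10 to 23, 17 and 36 counts (log2 fold change 1.84), with an adjusted p in edgeR of 0.0156, which became 0.0561 without IGF2BP1-NC library 2 and 0.0619 without IGF2BP1-KD library 3. All 3 were highest in IGF2BP1-KD library 3, as was the summed level of the mast cell, basophil and eosinophil markers given above, whose part in these values was not tested. LEPR, the leptin receptor, fell by 1.13 on the log2 scale (adjusted p = 8.8e-05, edgeR), from 12.4 to 5.68 FPKM, and LIFR by 0.94 (adjusted p = 0.00903, edgeR).

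Of 29 tested kinases, STATs and adaptors, 5 fell and 7 rose. STAT3, another STAT of cytokine receptors, had 5182, 4045 and 4097 counts in IGF2BP1-NC and 8282, 7388 and 8082 counts in knockdown libraries, a log2 fold change of 0.84 (adjusted p = 0.000197, edgeR) against the lower STAT5A and STAT5B. FES, a tyrosine kinase of myeloid cells, rose by 0.86 (adjusted p = 0.0224, edgeR). It was no longer called with control 2 (adjusted p = 0.0926), knockdown 2 (0.0834) or knockdown 3 (0.0754) left out in edgeR. The largest falls were those of SOS1 and PLCG1, which act downstream of activated receptors, with log2 fold changes of -0.45 and -0.32. ABL2, the closest relative of ABL1, had a log2 fold change of 0.039 (adjusted p = 0.714, edgeR), and CRKL, an adaptor that is phosphorylated by ABL kinases, one of -0.065 (adjusted p = 0.482). Both were singled out after their values were seen.

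All 19 negative regulators were tested, and 2 fell and 3 rose. SOCS3, the feedback inhibitor of STAT3-coupled receptors, fell by 1.06 on the log2 scale (adjusted p = 0.00184, edgeR), from 165, 135 and 127 to 69, 75 and 60 counts. PTPRC, the phosphatase CD45, fell by 1.19 (adjusted p = 0.00335, edgeR). INPP5D, which encodes the inositol phosphatase SHIP1, rose by 1.10 (adjusted p = 0.0128, edgeR; 0.0583 with the replicate number as a block). USP18 rose by 1.40 (adjusted p = 0.0124, edgeR; 0.0519 without IGF2BP1-NC library 2) and PTPN2 by 0.28 (adjusted p = 0.0125, edgeR; 0.0670 without IGF2BP1-KD library 2). USP18 would not have passed the filter on low counts from the IGF2BP1-NC libraries alone. SOCS1, the feedback inhibitor of JAK kinases, had a log2 fold change of -0.69 that did not pass the test (adjusted p = 0.0871) and was singled out after its value was seen.

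Of 14 tested other STAT5 targets, 4 fell and 1 rose. CCND2, a G1 cyclin, fell by 1.93 on the log2 scale (adjusted p = 0.00906, edgeR; 0.0543 without IGF2BP1-KD library 3), with 1654, 966 and 841 counts in IGF2BP1-NC and 318, 308 and 278 counts in knockdown libraries. IGF2BP1-NC library 1 was the highest control there too. PIM2, a relative of PIM1, fell by 0.57 (adjusted p = 0.000226, edgeR), from 3053, 3269 and 3069 to 2079, 1975 and 2266 counts, without that high library. MYC fell by 0.43 (adjusted p = 0.00281, edgeR). CCND1 rose by 0.74 (adjusted p = 0.000964, edgeR). BCL2L1, which encodes the survival protein BCL-XL and is the classical STAT5 target of erythroid cells, was at 85.0 FPKM in IGF2BP1-NC and 79.9 FPKM in IGF2BP1-KD, a log2 fold change of -0.100 that did not pass the test (adjusted p = 0.259, edgeR) and was singled out after its value was seen. In the promoter table, 73 of the 91 genes were matched, and 5 held TTCNNNGAA. Of these, LIFR was called lower, with a log2 fold change of -0.94 (adjusted p = 0.00903, edgeR). BCL6, with 4 matches, had a log2 fold change of 0.48 (adjusted p = 0.407, edgeR). ABI1 had one of -0.0088 (adjusted p = 0.937, edgeR), and IL3RA and GHR were not tested.

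The mRNAs of the 10 genes were compared in features that the choice of the genes did not use, for 11506 tested genes with a canonical GENCODE coding transcript. The letters GGAC, the core of many m6A sites, occurred 7.47 times per kb in EPOR, 6.44 in CISH and 5.90 in BCR, at percentiles 92.0, 85.1 and 80.2, and 1.75 and 1.14 times per kb in KIT and JAK2, at percentiles 10.9 and 2.95. The median over the genes was 3.67 per kb. The 7 genes that fell thus lay between 3.74 per kb for STAT5B and 6.44 per kb for CISH, and EPOR, which did not pass the test, lay above them. The letters ATTTA, a short element of unstable mRNAs, occurred 5 times in the 3′ UTR of PIM1, SOCS2 and STAT5B, 3 times in that of CISH, 4 times in that of BCR and 1 time in that of ABL1, and STAT5A had 0. Of the genes that did not pass the test, JAK2 had 12, the highest count of the 10 genes, KIT had 3 and EPOR had 0. The median over the genes was 2. These are counts of letters and not of methylated or bound sites.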

How the data were processed

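The authors made 6 mRNA-seq libraries with a stranded kit. As the submitters' notes and the supplementary methods state, Trimmomatic was used for trimming, HISAT2 for mapping to GRCh38 and HTSeq for counting per gene. Versions, annotation release and strand setting are not given in the sources used here. The deposited counts are whole numbers without normalization, and the deposited FPKM values are stated to come from Cufflinks. In the tables these FPKM follow from the count, the length of the gene and the total of the library, so they are the same reads on another scale.

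All genes were fitted in R 4.3.3 with edgeR 4.0.16 (TMM, filterByExpr, robust glmQLFit, glmQLFTest, two-sided), and p-values were adjusted by Benjamini-Hochberg over the 11994 tested genes. Calls had an adjusted p under 0.05. Standard errors were derived from the F statistic and intervals are 95% intervals. Log2 CPM used a prior count of 2. Alternatives were DESeq2 1.42.0, limma-voom and limma 3.58.1 on log2(FPKM + 1) (pseudocount 1, mean FPKM of 1 or more), 2 other scalings, 2 other filters, the replicate number as a block, and each library left out. Simulated counts for IGF2BP1-KD against IGF2BP1-NC held 200 altered genes, of which edgeR recovered 200 with 8 false calls among 11998 tested genes. The altered genes were all well counted and all changed 2-fold, and every gene had the same dispersion. The simulation therefore does not show how well smaller changes, low counts such as those of KIT, or widely spread controls are handled.

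The 10 genes and all lists were chosen with earlier results of these data known. Of the other pathway genes, those past the threshold and 2-fold are named, then in each list the 2 largest rises and 2 largest falls past the threshold. Promoters are from a RefSeq table (GRCh38.p14), annotation from GENCODE 44. Shared stretches were found with blastn 2.17.0. Figures were drawn with matplotlib 3.10.9, and permutation tests used scipy 1.17.1.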

Additional observations from a re-analysis of the deposited data

How the results depend on the processing

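Of 138 values of the 10 genes under the 14 alternatives, 120 kept direction and side of the threshold. With each library left out EPOR ranged from -0.15 to 0.20 and JAK2 from -0.094 to 0.0064. EPOR turned to -0.15 without IGF2BP1-NC library 1 and to -0.043 without IGF2BP1-KD library 1, and JAK2 to 0.0064 without IGF2BP1-KD library 3. KIT passed the threshold without IGF2BP1-NC library 3. PIM1 lost it in 7 alternatives, among them library size scaling (adjusted p = 0.0542, edgeR), upper-quartile factors (0.0513) and no filter on low counts (0.0787), SOCS2 in 4 and BCR in 3. The number of the 10 genes called lower ranged from 4 to 7 and of those called higher from 0 to 1 with each library left out. For all genes the numbers were 1146 to 2062 lower and 1144 to 1929 higher, and for the other pathway genes 9 to 13 lower and 8 to 18 higher. With limma on log2(FPKM + 1), 8 of the other pathway genes were higher in place of 14. The ratio of STAT5A to STAT5B ranged from -0.031 to 0.19 (log2 difference) with each library left out, that of KIT to EPOR from 1.03 to 2.56 and that of BCR to ABL1 from 0.058 to 0.16. The causes were not tested.

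The replicate numbers are only names here, since same-numbered libraries did not deviate together (Pearson's r of deviations from the group means across genes -0.052, 0.036 and -0.106). With the replicate block, 1500 genes were lower and 1413 higher, and 7 of the 10 genes were lower. Intervals of counts cover counting error only, and KIT is limited by its depth of 1 to 24 counts.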
